A study of Brassica napus with 6 samples.

Results

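Genes that build and loosen the plant cell wall were followed in cadmium-exposed roots of the cultivar Nourin No.16 of oilseed rape (Brassica napus), grown with or without glutathione. The members were the probe sets annotated with a single gene symbol beginning with one of 14 family stems: TBL, EXPA, EXPB, EXLA, EXLB, XTH, XTR, CESA, CSL, IRX, FLA, GAUT, GATL or PME. The rule took 65 genes, each with 1 probe set, out of 13350 genes with a symbol of their own on the array. All plants received 10 µM cadmium chloride in hydroponic solution for 2 days. One group received cadmium only. The other received cadmium plus reduced glutathione (GSH), a thiol tripeptide from which plants make cadmium-binding phytochelatins, at a concentration that the labels give as 100 mM. Each group had 3 biological replicates and each replicate 1 array. The labels put the age of the plants at 4 weeks in one field and at 2 to 3 weeks in another, and the sources used here do not give the number of plants behind each RNA. Plants without cadmium were not analysed here.

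The probes were designed on Arabidopsis thaliana, which is related to oilseed rape. Each gene named below is therefore the Arabidopsis gene that the probe set targets, gene roles are those known in Arabidopsis, and oilseed rape copies of a gene were not separated. A signal also depends on how well the oilseed rape transcript matches the probes, so signals of different probe sets were not ranked as transcript levels. Signals are on a log2 scale, and RNA came from whole roots, where fewer cells of a type and less RNA per cell cannot be told apart.

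The growing plant cell wall is a network of cellulose microfibrils, hemicelluloses such as xyloglucan, and pectin. Many, though not all, cellulose synthase-like (CSL) enzymes make hemicellulose backbones, and the trichome birefringence-like (TBL) proteins attach acetyl groups to wall polysaccharides. Expansins (EXPA and EXPB) loosen the contacts between polymers without cutting them, and the expansin-like proteins EXLA and EXLB are their relatives. Xyloglucan endotransglucosylase/hydrolases (XTH) cut and rejoin xyloglucan chains. Pectin methylesterases (PME) expose acidic groups of pectin, which can bind calcium and heavy metals such as cadmium, so the root wall is one of the places where plants hold this metal.

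Most of the wall genes held a single value. Of the 65 genes, 52 (80.0%) ranged by under 0.01 over the 6 arrays, so their values cannot show a response to the treatment. Another 13 (20.0%) varied. Over all 22746 probe sets tested, 10.7% varied. The 13 varying genes came from 7 families, counted over the genes that the rule took, which need not be whole families. There were 2 of 22 TBL genes (TBL36 and TBL39), 2 of 10 EXPA genes (EXPA4 and EXPA18), 2 of 3 EXLA genes (EXLA2 and EXLA3), the only EXLB gene (EXLB1), 4 of 9 XTH genes (XTH19, XTH26, XTH32 and XTH33), 1 of 8 CSL genes (CSLC04) and 1 of 5 PME genes (PME61). The 4 EXPB genes, the 2 IRX genes (IRX15 and its relative IRX15-L, of xylan synthesis) and GAUT15, of the galacturonosyltransferase family of pectin synthesis, were all constant. No probe set with a single gene symbol had a stem of CESA, XTR, FLA or GATL, and probe sets with several symbols were not searched. The cellulose synthases and fasciclin-like arabinogalactan proteins were therefore not analysed here. One of the 5 PME entries, PMEAMT, is a methyltransferase of phosphocholine synthesis that the stem took in by its letters, and it was constant.

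Signal over background was judged from 27 control probe sets for bacterial genes (dap, lys, phe, thr and trpn), the highest of which had a mean of 6.05. The other control probe sets of the array were not used for this. Of the 65 wall genes 38 (58.5%) had a mean above it, against 42.6% of all probe sets. All but 2 of the 13 varying genes lay above it, and so did 27 of the 52 constant ones. The 3 constant genes with the highest signal were CSLD2 at 6.80, EXPA15 at 6.53 and EXPA7 at 6.50. CSLD2 and EXPA7 act in the growth of root hairs in Arabidopsis.

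**Figure D1:**
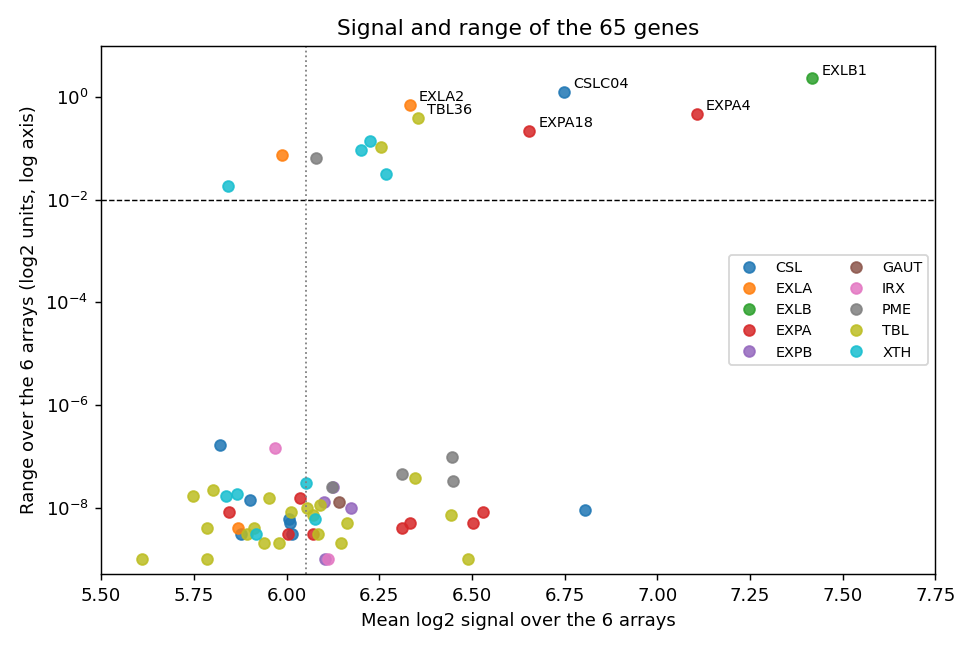
Mean log2 signal over the 6 arrays (horizontal axis) against the range over the 6 arrays (vertical log axis, log2 units) for the 65 wall genes, coloured by family. The dashed line marks a range of 0.01 and the dotted line the highest bacterial control (6.05). The 13 varying genes lie above the dashed line and the 52 constant ones far below it, on both sides of the dotted line.

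The comparison asked how GSH given to the roots alters transcript signals while cadmium is present. No wall gene passed the test. In the limma fit of all 2428 varying probe sets, with p-values adjusted by the Benjamini-Hochberg method, 0 of the 13 varying wall genes passed the threshold of 0.05, as did 0 of all varying probe sets (0%). For the 13 the adjusted limma p ran from 0.204 to 0.999. At an unadjusted p under 0.05 limma gave 2 of the 13 (15.4%), TBL36 with a higher and EXLB1 with a lower mean in the GSH group. Among all varying probe sets that share was 12.9%, with 6.18% higher and 6.67% lower. The groups did not overlap in 1 of the 13 genes (7.69%), TBL36, against 18.7% of all varying probe sets (8.90% with higher and 9.84% with lower GSH values). Both shares of the wall genes rest on 1 or 2 genes. The mean was higher with GSH for 6 genes and lower for 7, and the median log2 difference of the 13 was -5.3e-05, beside -7.2e-04 over all varying probe sets. Over the 11 genes above the highest bacterial control the median was -0.0097.

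TBL36 (probe set 251886_at), of the family that acetylates wall polysaccharides, was the only wall gene whose groups separated. Its log2 signal was 6.16, 6.24 and 6.24 on the 3 arrays with cadmium only, and 6.54, 6.56 and 6.40 on the 3 arrays with cadmium plus GSH. Every GSH array lay above every cadmium array, and GSH replicate 3 lay closest to them. All 3 cadmium arrays lay above the highest bacterial control (6.05), but cadmium replicate 1, at 6.16, was near it. The group means were 6.21 ± 0.05 (SD, n = 3) and 6.50 ± 0.09 (SD, n = 3). The log2 difference, GSH minus cadmium only, was 0.29 (SE 0.05), which is 1.22-fold, with a limma 95% interval from 1.12-fold to 1.33-fold. Its unadjusted limma p of 0.00197 ranked 22 among the 2428 varying probe sets, and its adjusted p was 0.204. By size of difference TBL36 ranked 202 among them. The exact two-sided permutation p was 0.1, the smallest that 3 arrays against 3 can give.

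The other varying TBL gene, TBL39, did not separate the groups. Its log2 signal was 6.22, 6.27 and 6.27 with cadmium only and 6.26, 6.20 and 6.31 with GSH, so both the highest and the lowest array were GSH arrays. The log2 difference was 0.0013 (SE 0.03), with a limma 95% interval from -0.09 to 0.09. The other 20 TBL genes were constant, 9 of them above the highest bacterial control. The probe set of TBL32, one of the constant genes, is of a type that reads more than 1 transcript.

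EXLB1 (probe set 245463_at), the expansin-like B gene, had the widest spread and the largest difference of the 13 varying genes. Its log2 signal was 7.52, 8.44 and 8.18 with cadmium only, and 6.10, 6.72 and 7.56 with GSH. GSH replicates 1 and 2 lay below every cadmium array, while GSH replicate 3 lay just above cadmium replicate 1, so the groups overlapped by that pair. The means were 8.05 ± 0.48 (SD, n = 3) and 6.79 ± 0.73 (SD, n = 3). The log2 difference was -1.26 (SE 0.44), so the signal was 2.39-fold lower with GSH, with a limma 95% interval from 1.11-fold to 5.13-fold lower. GSH replicate 1, at 6.10, lay close to the highest bacterial control (6.05). Of the 2428 varying probe sets, 14 (0.577%) differed by at least 2-fold, 10 of them (0.412%) with lower GSH values, and EXLB1 ranked 10 by size among them. Its unadjusted limma p was 0.0324, its adjusted p 0.338 and its exact two-sided permutation p 0.2. The unadjusted p rose above 0.05 when cadmium replicate 2, cadmium replicate 3, GSH replicate 1 or GSH replicate 2 was left out, with a limma p between 0.0772 and 0.0956. The difference was negative in each of the 6 fits with 1 array left out, from -1.64 to -0.91.

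Among the alpha-expansins, EXPA4 (probe set 267590_at) had closely spaced cadmium arrays and spread GSH arrays. Its log2 signal was 7.03, 6.99 and 6.99 with cadmium only and 7.39, 7.31 and 6.91 with GSH. Of the GSH arrays, replicates 1 and 2 lay above every cadmium array and replicate 3 below all of them. The log2 difference was 0.20 (SE 0.13), with a limma 95% interval of -0.12 to 0.53. Its adjusted limma p was 0.594. Without GSH replicate 3 the difference was 0.35 (SE 0.03), with an unadjusted limma p of 3.1e-04 and an adjusted p of 0.133. That array, the lowest, was picked after the values were seen. With any other array left out the difference ran from 0.11 to 0.21, with an unadjusted limma p from 0.235 to 0.433. EXPA18, an expansin of root hairs in Arabidopsis, stood at 6.56, 6.57 and 6.78 with cadmium only and at 6.69, 6.70 and 6.63 with GSH. Its highest and lowest arrays were both cadmium arrays, and its log2 difference was 0.03 (SE 0.07). Without cadmium replicate 3, the highest array, it was 0.11 (SE 0.03), with an adjusted limma p of 0.260. This array too was picked after the values were seen. With any other array left out the difference of EXPA18 ran from -0.0049 to 0.057. The other 8 EXPA genes were constant, 5 of them above the highest bacterial control.

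**Figure D2:**
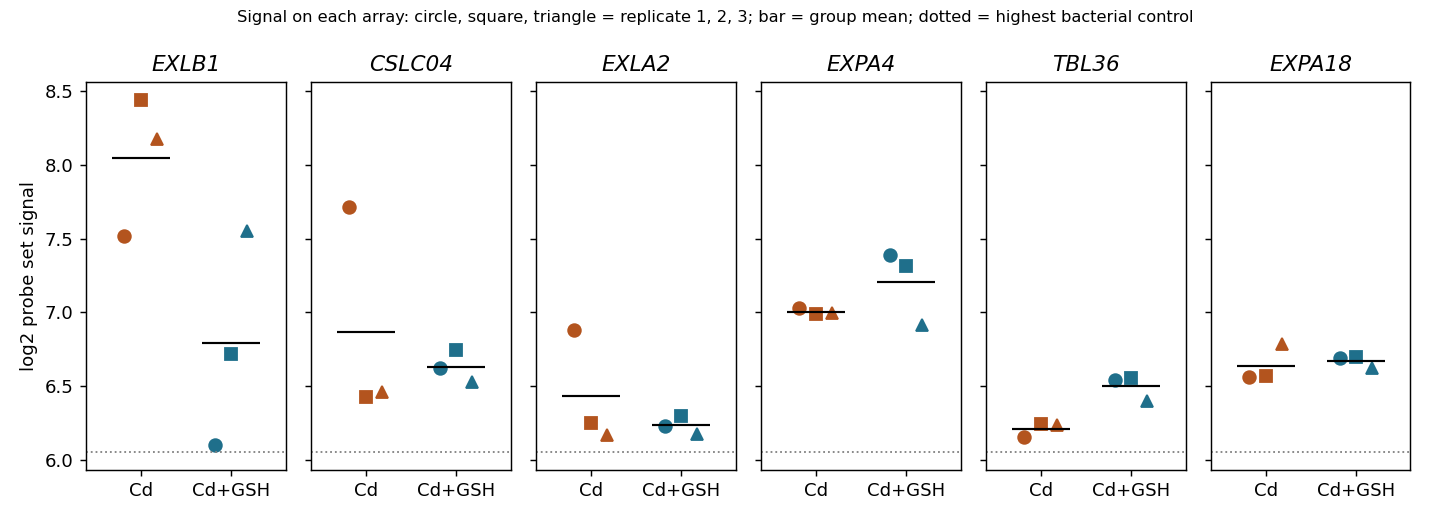
Log2 signal (vertical axis) on each array for the 6 wall genes that ranged by over 0.15, with cadmium only in brown and cadmium plus GSH in blue. Symbols mark the replicate, bars the group means and the dotted line the highest bacterial control. TBL36 alone has groups that do not overlap, and CSLC04 and EXLA2 each have 1 high array, cadmium replicate 1.

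CSLC04 and EXLA2 had lower means with GSH, and both differences rested on a single array. CSLC04 (probe set 257071_at), of the enzymes that make the xyloglucan backbone, stood at 7.71, 6.43 and 6.46 with cadmium only and at 6.62, 6.74 and 6.53 with GSH. EXLA2 (probe set 252997_at), an expansin-like A gene, stood at 6.88, 6.25 and 6.17 with cadmium only and at 6.23, 6.30 and 6.18 with GSH. In both genes cadmium replicate 1 lay far above the other 5 arrays, by 0.97 for CSLC04 and by 0.58 for EXLA2. The log2 difference of CSLC04 was -0.24 (SE 0.37) over all arrays, with a limma adjusted p of 0.853. Without cadmium replicate 1 it turned to 0.19 (SE 0.07), with a limma adjusted p of 0.359. Both remaining cadmium arrays then lay below all GSH arrays. Cadmium replicate 1 was picked for this after the values were seen. With that array left out, the groups did not overlap in 30.2% of all varying probe sets. The log2 difference of EXLA2 was -0.20 (SE 0.20) over all arrays and 0.03 without cadmium replicate 1.

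The high values on cadmium replicate 1 were not limited to wall genes. Over all varying probe sets, 61 had 1 array above the next by more than 0.5, and in 48 of these that array was cadmium replicate 1. The medians of the 6 arrays over the varying probe sets ran from 6.26 to 6.29, with cadmium replicate 1 at the upper end. The part of this array in the differences of other genes was not tested beyond leaving it out.

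The remaining expansin-like gene, EXLA3, was not above the highest bacterial control on any array, at 5.98 with cadmium only and 5.99 with GSH, so no fold is given. EXLA1 was constant and also below it.

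The 4 varying XTH genes showed small differences in relation to their spread. XTH33 stood at 6.16, 6.26 and 6.22 with cadmium only and at 6.23, 6.17 and 6.17 with GSH, a log2 difference of -0.02 (SE 0.03). XTH32 stood at 6.26, 6.14 and 6.29 with cadmium only and at 6.19, 6.21 and 6.26 with GSH, a difference of -0.01 (SE 0.04). XTH26 stood at 6.27, 6.26 and 6.27 with cadmium only and at 6.27, 6.29 and 6.26 with GSH, a difference of 0.01 (SE 0.02). In each of these genes the groups overlapped. XTH19, of a group of XTH genes used mainly in roots in Arabidopsis, was not above the highest bacterial control on any array (5.84 in both groups). Of the 5 constant XTH genes, 2 lay above it.

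PME61, a pectin methylesterase, was the single varying gene of its family. Its log2 signal was 6.09, 6.08 and 6.09 with cadmium only and 6.08, 6.10 and 6.04 with GSH, close to the highest bacterial control throughout. The groups overlapped, and the log2 difference was -0.01 (SE 0.02). The constant members ATPMEPCRB, ATPMEPCRD and PMEPCRF, annotated as pectin methylesterases, had signals of 6.31, 6.45 and 6.45.

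By family, the median log2 difference was 0.14 for TBL (2 genes), 0.12 for EXPA (2 genes), -0.09 for EXLA (2 genes) and -0.0049 for XTH (4 genes). These medians are descriptions, and those of 2 genes are the midpoint of a larger and a smaller value. Without cadmium replicate 1 the EXLA median turned to 0.02, and without cadmium replicate 3 it was -0.17. It includes EXLA3, which was not above the highest bacterial control. Without GSH replicate 3 the EXPA median was 0.20, and without GSH replicate 1 it was 0.07.

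**Figure D3:**
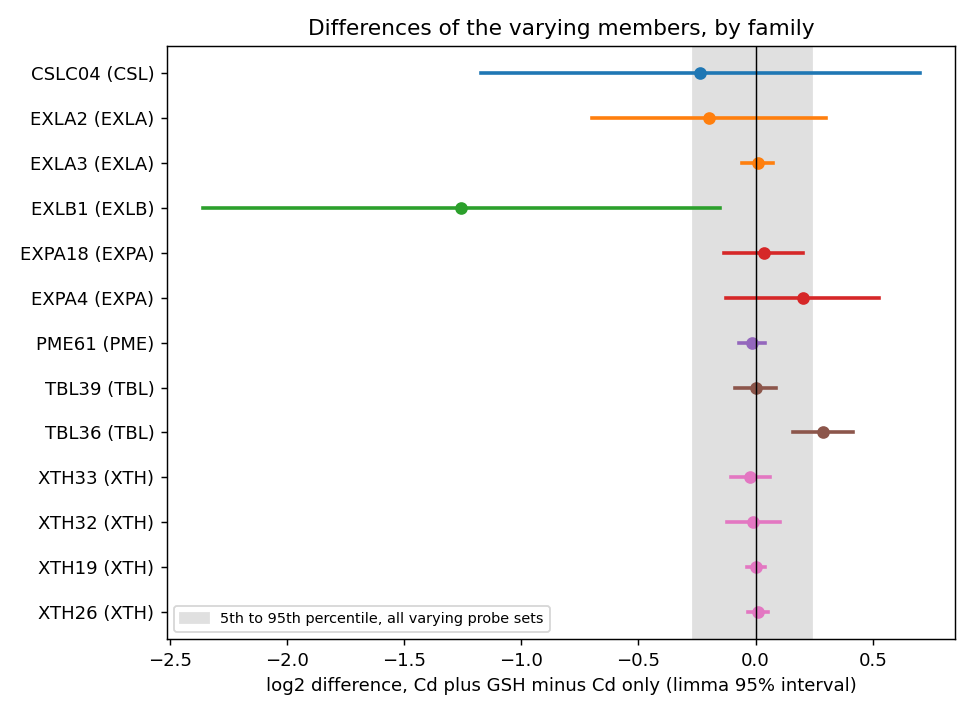
Log2 difference, cadmium plus GSH minus cadmium only (horizontal axis), with its limma 95% interval for the 13 varying wall genes, ordered by family. The grey band holds the differences between the 5th and the 95th percentile of all varying probe sets, from -0.27 to 0.24. EXLB1 and TBL36 lie outside the band, and their intervals are the only ones that do not reach 0.

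The spread among replicates was larger with cadmium only in 7 of the 13 genes (53.8%), against 59.8% of all varying probe sets. The SD of CSLC04 was 0.73 with cadmium only and 0.11 with GSH, and that of EXLA2 was 0.39 and 0.06, both through cadmium replicate 1. EXPA4 ran the other way, with an SD of 0.02 with cadmium only and 0.26 with GSH. In EXLB1, TBL36 and EXPA4, GSH replicate 3 was the GSH array nearest to the mean of the cadmium arrays, a likeness chosen after the values were seen.

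**Figure D4:**
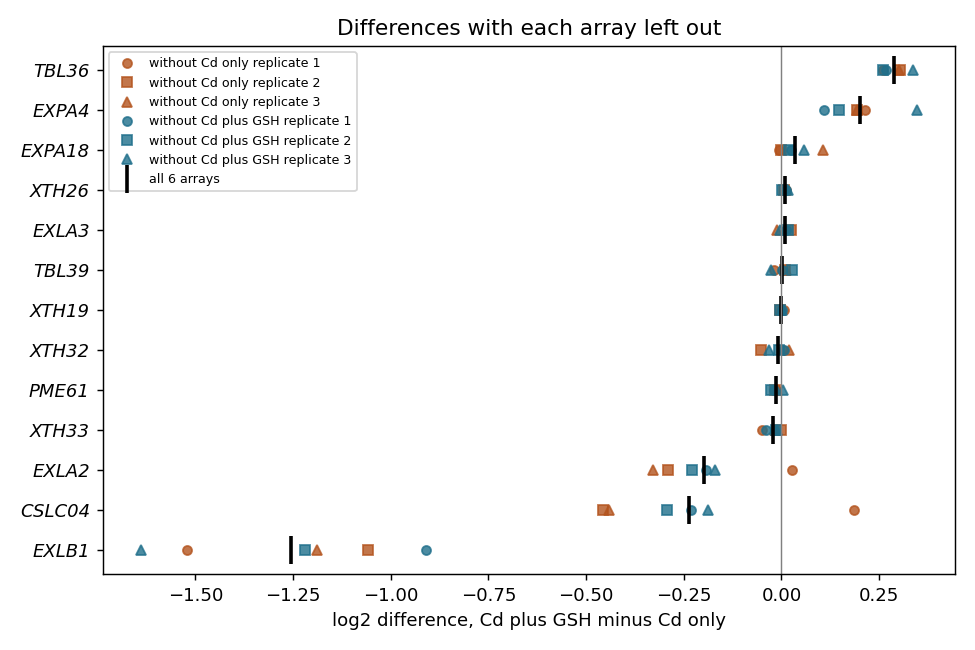
Log2 difference (horizontal axis) of the 13 varying wall genes over all 6 arrays (black bar) and with each array left out in turn (brown symbols, a cadmium array; blue symbols, a GSH array). TBL36 stays between 0.26 and 0.34 and EXLB1 between -1.64 and -0.91, while CSLC04 runs from -0.46 to 0.19 and crosses 0.

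Other cell wall genes were looked up from a list of 58 genes of nucleotide sugar supply, xyloglucan and pectin synthesis, cellulose assembly, acetylation, wall proteins, wall sensing and secondary wall control. Among probe sets with a single gene symbol the annotation matched 4 of them, all constant, so 0 of 4 could pass the test in either direction. They were FER, a receptor kinase that senses the wall, at 7.41, and, below the highest bacterial control, the related kinase THE1 at 5.95, COB, which acts in cellulose deposition, at 5.79, and TBR, the founding relative of the TBL genes, at 5.78. The unmatched genes were not analysed here. The tissue label could be checked only in part. Of 17 root markers 2 were matched, EXPA7 (constant at 6.50) and EXPA18 (6.56 to 6.78), both of root hairs and both above the highest bacterial control. Of 7 markers of green tissue 2 were matched, LHCB4.1 and RCA, constant at 6.07 and 6.04, on either side of the highest bacterial control. A constant value is the same on every array, so EXPA7, LHCB4.1 and RCA do not check the tissue of any single array.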

How the data were processed

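The authors deposited 1 log2 value per probe set and array for 22810 probe sets. The scale was judged to be log2 by its range, since no source states it. The submitters' processing notes name R 2.7.2. The sources used here do not give the background correction, normalisation, summary, slides or scan dates, so no batch could be tested. The labels' protocols name a plant RNA kit and a 3' amplification kit. The array annotation gave 1 gene symbol to 13513 of 22746 tested probe sets, several to 503 and none to 8730, with 64 control probe sets kept apart.

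Differences come from limma 3.58.1 under R 4.3.3 (functions lmFit and eBayes, Benjamini-Hochberg adjustment, threshold 0.05) on the 2428 probe sets ranging by over 0.01, and the fit was tested on simulated data. Named genes are varying members that do not overlap between groups, have an unadjusted p under 0.05, or have the largest difference or signal of their family; the others were added so that all 13 are shown. The members and lists were chosen with earlier results of these data known. Alternatives were another normalisation, range limit, signal filter, variance model or probe-set rule, a replicate block, and leaving out each array. The number of arrays limits the precision.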

Additional observations from a re-analysis of the deposited data

How the results depend on the processing

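None of the 13 varying wall genes passed the adjusted threshold under any alternative run. TBL36, EXLB1 and EXPA4 kept their direction in all 14, as did XTH26 and XTH33 in the 13 that included them. Only quantile normalisation, equal array medians and leaving out an array could change a direction. The other alternatives left each gene's difference as it was in the main fit. TBL36 ran from 0.26 to 0.34, with adjusted limma p from 0.110 to 0.698. Deviations from the group means correlated at -0.11, -0.21 and 0.13 for same-numbered arrays, and from -0.23 to 0.32 for differently numbered ones. With so few arrays per mean, these values cannot decide whether the replicate numbers pair the samples. With the replicate block 0 probe sets were called and the count of wall genes with an unadjusted p under 0.05 was again 2. The unadjusted limma p was then 0.0125 for EXLB1 and 0.00956 for TBL36, beside 0.0324 and 0.00197 in the main fit. The count of all varying probe sets called, 0, became 2 with quantile normalisation, 5 with a range over 0.1, 42 over the whole table, where differences of rounding size pass, and 0 to 13 with 1 array left out (13 without cadmium replicate 3). With 1 array left out, the wall genes with an unadjusted p under 0.05 numbered 1 to 3 (1 to 2 higher, 0 to 1 lower) and those without overlap 1 to 4, while 8.57% to 13.9% and 26.5% to 31.1% of all varying probe sets did so. With array medians set equal, 2 did not overlap (TBL36 and XTH19; 21.3% of all varying probe sets), the median of the 13 was 0.012, that of XTH was 0.0074, and XTH19 and XTH32 turned to 0.012 and 0.0025. Over genes above the highest bacterial control the median was -0.0097. Over the whole table, constant genes included, 2 wall genes were higher and 0 lower at an unadjusted p under 0.05, and 4 of 65 did not overlap, beside 5.62% and 7.57% of all probe sets. With 1 array left out the median of the 13 ran from -0.0032 to 0.0060 and that of XTH from -0.0049 to 0.0054. Signs turned without 1 array for CSLC04 (-0.46 to 0.19), EXLA2 (-0.33 to 0.03), EXLA3 (-0.011 to 0.026), EXPA18 (-0.0049 to 0.106), PME61 (-0.027 to 0.0048), TBL39 (-0.026 to 0.028), XTH19 (-0.0032 to 0.0060) and XTH32 (-0.052 to 0.018). EXLA3 and XTH19 were not above the highest bacterial control, so no direction is read from them.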
